A study of Homo sapiens with 4 samples.

Results

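RNA-seq of 2 human colon cell lines was examined for 10 genes of the canonical WNT pathway: AXIN2, LGR5, ASCL2, RNF43, ZNRF3, NKD1, TCF7, LEF1, APC and CTNNB1. They were chosen by gene name from a table of 64962 rows, and all 10 have a row. After SCS, AXIN2, RNF43 and ZNRF3, the feedback inhibitors of the pathway, were read at lower levels in HT-29. By fragments corrected for library composition they changed within 1.5-fold in NCM460. By total fragments, without that correction, this did not hold, and ZNRF3 was higher there. By the deposited FPKM all 3 were lower in NCM460 too. AXIN2 had only 6 and 12 fragments in NCM460 without and with SCS, too few to set its change apart from that in HT-29. Each of the 3 inhibitors shares its values with a neighbouring gene, so the values belong to a locus and not to the named gene alone. HT-29 is a cell line of human colorectal cancer, and NCM460 is a human colorectal line that the study used as its normal counterpart. SCS is chondroitin sulfate prepared from sturgeon, given at 100 μg/mL for 24 h. The 4 groups were HT-29 control, HT-29 with SCS, NCM460 control and NCM460 with SCS, with no genotype change or other agent named in the labels and 1 library for each. Without replicates no difference could be tested, and no p-value is given.

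In the canonical pathway a WNT ligand binds a frizzled receptor together with LRP5 or LRP6. This stops a destruction complex of APC, AXIN1 or AXIN2, GSK3B and casein kinase 1 from marking β-catenin, the product of CTNNB1, for degradation. β-catenin then enters the nucleus and switches on target genes with the DNA-binding factors TCF7, LEF1, TCF7L1 and TCF7L2. Several targets feed back on the pathway: AXIN2 rebuilds the destruction complex, the ubiquitin ligases RNF43 and ZNRF3 remove frizzled from the cell surface, and NKD1 binds dishevelled. LGR5, a receptor for R-spondins, and the transcription factor ASCL2 mark stem cells of the colon crypt. In colorectal cancer the pathway is commonly switched on by truncation of APC, and HT-29 is known as such a line.

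The libraries held between 1156568 and 1654764 fragments in named genes. Mitochondrial genes took 35.8% and 13.8% of them in HT-29 without and with SCS, and 62.3% and 46.3% in NCM460. The nuclear fragments behind all values below therefore ranged from 507692 to 1383424, and 1 CPM (CPM, the fragment count divided by the library size in units of 1000000 and by edgeR's TMM factor) meant less than 1 fragment in NCM460 control. A count of 0 allows up to 3 fragments, which is 1.47 CPM in HT-29 control, 1.25 CPM in HT-29 with SCS, 3.85 CPM in NCM460 control and 2.77 CPM in NCM460 with SCS. Of 12 colon epithelium markers, 8 were above that floor in each HT-29 library and 6 in each NCM460 library. CDX1 and GPA33 had 0 fragments in all 4 libraries. KRT20, VIL1 and LGALS4, markers of differentiated enterocytes, had 0 fragments in NCM460 and at least 24 in each HT-29 library, and CDX2 had 0 in HT-29 and 14 and 12 in NCM460. The summed CPM of the 12 markers was 6526, 3535, 4346 and 2659 in HT-29 control, HT-29 with SCS, NCM460 control and NCM460 with SCS. KRT8 (7024 to 3518 fragments) and KRT18 (4453 to 2676) carried the lower sum in HT-29 with SCS, where KRT19 (720 to 375) and VIL1 (138 to 24) were lower too. KRT20 (119 to 306), LGALS4 (138 to 464) and CDH1 (267 to 526) went the other way, so the enterocyte markers did not move together. The summed CPM of 10 mesenchymal markers was 5.87, 8.74, 119 and 133 in the same order, and SPARC among them had 0 fragments in HT-29 and 65 and 102 in NCM460. The part of these differences in the results was not tested. Less RNA of a gene per cell and fewer cells that express it cannot be told apart in these bulk libraries.

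Of the 10 members, 4 had a locus of their own (LGR5, NKD1, TCF7 and CTNNB1), 4 carried values identical to those of other genes in every column, and ASCL2 and LEF1 had 0 fragments in all 4 libraries. AXIN2 (ENSG00000168646, chromosome 17, 65528563 to 65561647, minus strand, GRCh38 coordinates) had the values of CEP112, a centrosome gene whose nearest edge lies 73.9 kb away and does not overlap it. It also had those of CTD-2535L24.2, a coding model that overlaps both. RNF43 (ENSG00000108375, chromosome 17, 58352500 to 58417595, minus strand) shared its values with SUPT4H1, a transcription elongation factor gene that overlaps its end by 594 bases. ZNRF3 (ENSG00000183579, chromosome 22, 28883592 to 29057487, plus strand) shared them with KREMEN1, a receptor for the WNT inhibitor DKK1 that lies 15.6 kb downstream, and with 3 non-coding genes. APC (ENSG00000134982, chromosome 5, 112707498 to 112846239, plus strand) shared them with SRP19, a signal recognition particle gene 14.9 kb downstream, and with 3 other models. For these 4 members the fragments of the member cannot be separated from those of its partners.

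**Figure D1:**
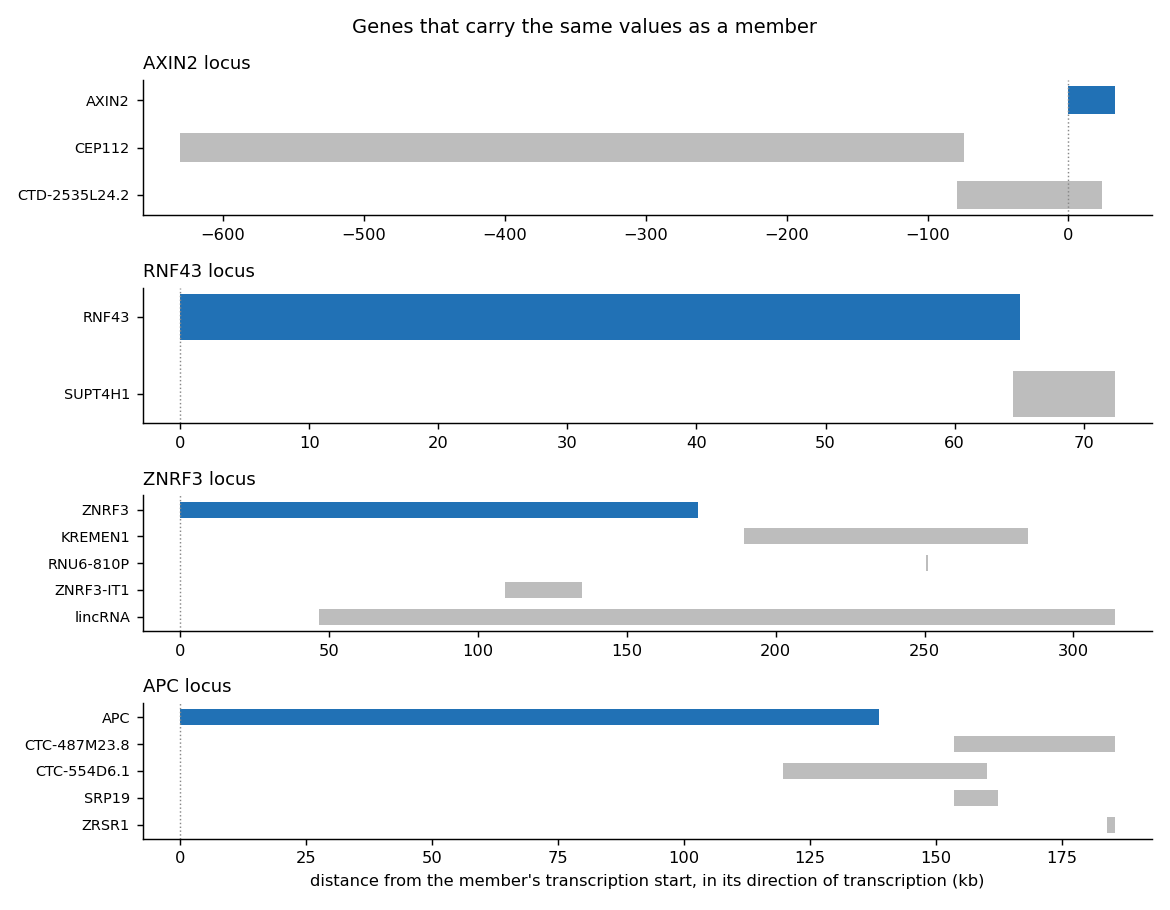
Map of the 4 loci in which a member (blue) and other genes (grey) carry the same values, with the distance from the member's transcription start in kb on the horizontal axis, positive in its direction of transcription. SUPT4H1 overlaps RNF43 by 594 bases, while CEP112, KREMEN1 and SRP19 do not overlap their member.

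LGR5, NKD1, TCF7 and CTNNB1 shared their values with no other gene, while ASCL2 and LEF1 had no fragments by which sharing could be seen. Overlap by position was not examined for these members. LGR5 (ENSG00000139292) spans chromosome 12, 71439770 to 71586310, plus strand. NKD1 (ENSG00000140807) spans chromosome 16, 50548330 to 50640739, plus strand. TCF7 (ENSG00000081059) spans chromosome 5, 134114711 to 134151865, plus strand. CTNNB1 (ENSG00000168036) spans chromosome 3, 41194837 to 41260096, plus strand. ASCL2 (ENSG00000183734) spans chromosome 11, 2268495 to 2270952, minus strand, and LEF1 (ENSG00000138795) chromosome 4, 108047545 to 108168956, minus strand.

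TCF7 is itself a gene with more than 1 start, and its known short proteins lack the part that binds β-catenin, so a value for the whole gene mixes forms with different roles. Promoter windows from RefSeq (GRCh38.p14) were used for 5 of the 10 members (RNF43, TCF7, LEF1, APC and CTNNB1), 8 windows of 250 bases before a start, and those of the others were not analysed here. They were searched on both strands for the TCF/LEF core, the letters CTTTG followed by AA, AT, TA or TT. Of the 8 windows, 1 held a match, against 12% of all 35116 windows, so the members' share lies near that of promoters in general. The match lay before the downstream start of TCF7, inside the gene at chr5:134123368-134123617, plus strand. It is shown because it is the only one of the 8 windows with such a match, and capitals mark AACAAAG, the core read on the opposite strand, 50 bases before the start.
TCF7 downstream start: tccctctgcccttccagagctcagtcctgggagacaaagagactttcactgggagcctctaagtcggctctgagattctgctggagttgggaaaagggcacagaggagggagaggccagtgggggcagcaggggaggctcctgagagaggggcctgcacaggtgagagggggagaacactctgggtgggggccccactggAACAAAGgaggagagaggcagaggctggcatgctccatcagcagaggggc
A match of letters is a description and not a site of binding, and the table gives 1 value for TCF7 and none for each start.

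The feedback genes are described first. The AXIN2 locus had 90 fragments in untreated HT-29 and 41 after SCS, and 6 and 12 fragments in NCM460 without and with it. These are 44.0, 17.1, 7.70 and 11.1 CPM. The exact Poisson 95% interval in HT-29 control, 35.4 to 54.1 CPM, lay above those of the other 3 libraries, the next highest of which ran from 12.2 to 23.1 CPM in HT-29 with SCS. The intervals of the NCM460 libraries, 2.83 to 16.8 and 5.73 to 19.4 CPM, overlapped each other. All such intervals cover counting error only, since PCR copies of a molecule are not independent and cultures were not repeated.

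The RNF43 locus had 320, 214, 108 and 113 fragments in HT-29 control, HT-29 with SCS, NCM460 control and NCM460 with SCS, or 156, 89.1, 139 and 104 CPM. HT-29 with SCS was the lowest of the 4, and its interval (77.5 to 102 CPM) overlapped that of NCM460 with SCS (86.1 to 126 CPM) and of no other library. ZNRF3 had 638, 364, 113 and 202 fragments in the same order, or 312, 151, 145 and 187 CPM. Its level in HT-29 control, with an interval of 288 to 337 CPM, stood above the other 3, whose intervals lay between 120 and 214 CPM.

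NKD1 was read from few fragments, 6, 5, 13 and 13 in HT-29 control, HT-29 with SCS, NCM460 control and NCM460 with SCS. At 2.93, 2.08, 16.7 and 12.0 CPM it was the only detected feedback gene with lower values in both HT-29 libraries than in both NCM460 libraries. LGR5 had 4 fragments in HT-29 control (1.96 CPM) and 0 in the other 3 libraries. Any LGR5 level in those 3 was under their floors, so a difference could not be detected at this depth. ASCL2, with 0 fragments everywhere, was under the floor in all 4.

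Among the DNA-binding partners, TCF7 had 56, 52, 24 and 18 fragments in HT-29 control, HT-29 with SCS, NCM460 control and NCM460 with SCS, or 27.4, 21.6, 30.8 and 16.6 CPM, with intervals that all overlapped. LEF1 had 0 fragments in each. Of the other genes of this family, TCF7L2 had 140, 91, 164 and 177 fragments in the same order, and TCF7L1 had 0, 0, 31 and 13.

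Of the core genes, APC had 97, 137, 35 and 43 fragments, or 47.4, 57.0, 44.9 and 39.8 CPM, with overlapping intervals. CTNNB1 had 247, 248, 92 and 180 fragments, or 121, 103, 118 and 166 CPM. The interval of CTNNB1 in NCM460 with SCS, 143 to 193 CPM, lay above that in HT-29 control (106 to 137 CPM) and in HT-29 with SCS (90.8 to 117 CPM) and overlapped that in NCM460 control (95.2 to 145 CPM).

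**Figure D2:**
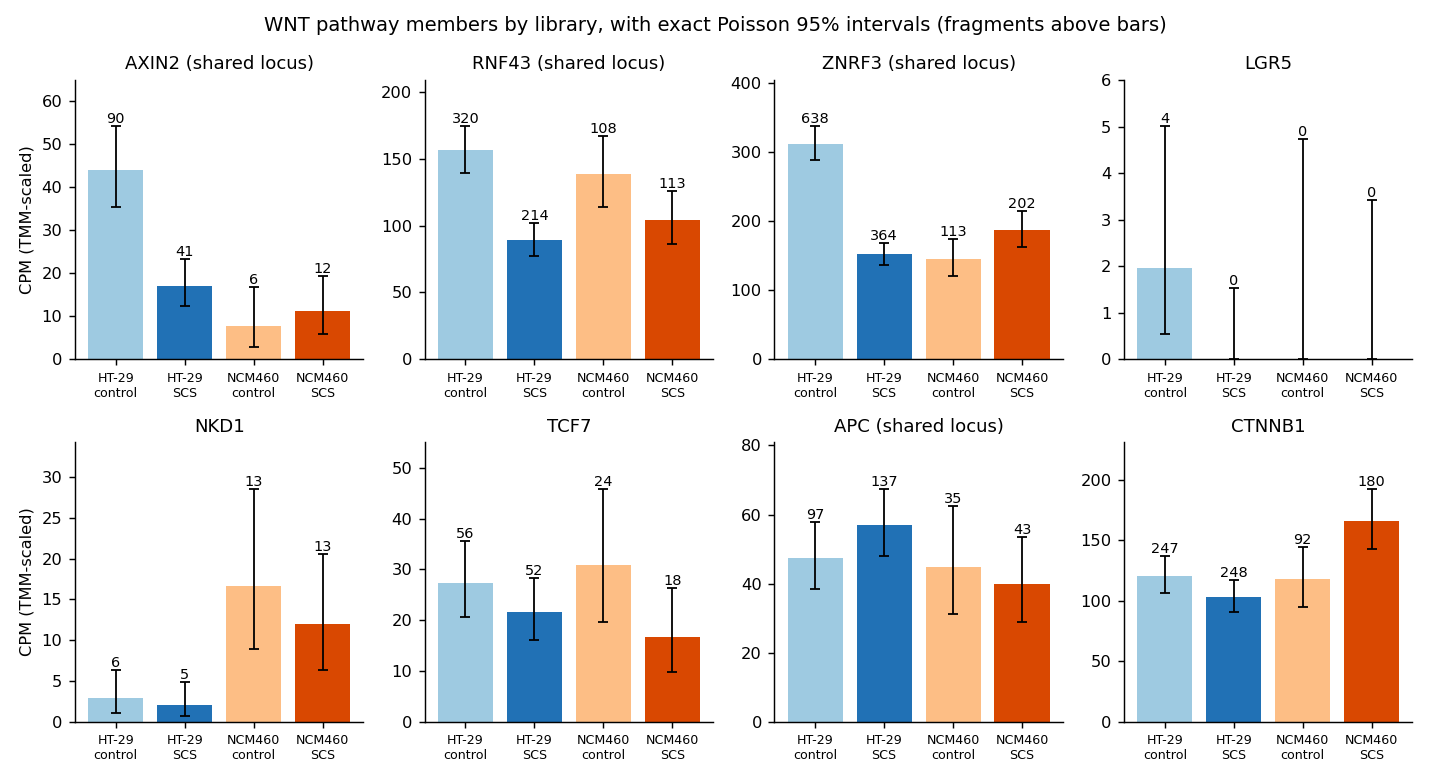
Level of the 8 detected members in CPM (vertical axes, linear from 0, one scale per gene) in the 4 libraries, with exact Poisson 95% intervals and the number of fragments above each bar. AXIN2 and ZNRF3 are highest in HT-29 control (44.0 and 312 CPM), and NKD1 is higher in both NCM460 libraries (16.7 and 12.0 CPM) than in both HT-29 libraries.

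Levels of different genes are compared per transcript length, by the deposited FPKM. In HT-29 control the order was RNF43 (35.2 FPKM), CTNNB1 (34.5), ZNRF3 (23.3), AXIN2 (13.7), APC (13.0), TCF7 (9.72), LGR5 (0.616) and NKD1 (0.274 FPKM). In NCM460 control it was RNF43 (67.8 FPKM), CTNNB1 (44.3), APC (26.7), ZNRF3 (21.6), TCF7 (13.9), NKD1 (10.3) and AXIN2 (6.38 FPKM). RNF43 and CTNNB1 led in both controls. The values of RNF43, ZNRF3, AXIN2 and APC in these orders are those of shared loci, RNF43 with SUPT4H1, so they do not rank the genes alone. Neighbours such as RNF43 and CTNNB1, or AXIN2 and APC, in HT-29 were too close to be ordered without replicates.

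FPKM and fragments did not always move together. NKD1 had 13 fragments in each NCM460 library, yet its FPKM was 10.3 in the control and 1.15 with SCS. For AXIN2 in NCM460 the fragments went from 6 to 12 while FPKM went from 6.38 to 2.97, and for ZNRF3 the fragments went from 113 to 202 while FPKM went from 21.6 to 14.5. FPKM divides by a transcript length, and the lengths behind it were not used here, so the cause of the difference was not tested. Comparisons between libraries below use fragments.

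The first comparison asked what SCS does to these genes in the cancer line. In HT-29 the 3 feedback inhibitors with enough fragments were lower with SCS: AXIN2 by a log2 fold change of -1.30 (95% counting interval -1.94 to -0.82), ZNRF3 by -1.04 (-1.23 to -0.85) and RNF43 by -0.80 (-1.07 to -0.56). On the linear scale their levels with SCS were 0.405, 0.488 and 0.573 times those in the control. A locus was called changed when it differed by over 1.5-fold and its exact Clopper-Pearson interval excluded no change. By this rule 3 of the 7 members with a mean of at least 1 CPM were called lower and 0 higher. Over all 12168 loci tested, 31.5% were called, 14.8% as lower and 16.8% as higher.

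All 3 called members lie in shared loci, and no member with a locus of its own was called in HT-29. NKD1 had a log2 fold change of -0.33 with a wide interval of -2.55 to 1.48, so a change within that range was not detectable at this depth. TCF7 stood at -0.32 (-0.91 to 0.23), CTNNB1 at -0.22 (-0.49 to 0.03) and APC at 0.26 (-0.12 to 0.66). The interval of CTNNB1 covers no change over 1.5-fold. LGR5 went from 4 fragments to 0, with an interval that included no change. The median log2 fold change of the 7 members was -0.33, beside 0.07 over all loci tested. AXIN2 and the pathway gene TCF7L2 are among the genes the study itself listed as changed in HT-29 from these libraries, so their changes here are not independent evidence.

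The call for RNF43 was the only one of the 3 lost under another scaling: by total fragments with no correction for composition, it stood at -0.53. That scaling moves the median of all loci tested from 0.07 to 0.31. The share of mitochondrial fragments went from 35.8% to 13.8% between these libraries, and its part in the shift was not tested.

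In NCM460 the same comparison called 0 of the 7 members, beside 29.2% of all 12657 loci tested (15.4% higher and 13.8% lower). AXIN2 had a log2 fold change of 0.46 (-1.0 to 2.23), ZNRF3 of 0.36 (0.03 to 0.71) and RNF43 of -0.40 (-0.80 to -0.01). The last 2 intervals excluded no change, but the values stayed under the threshold of 1.5-fold. CTNNB1 stood at 0.49 (0.12 to 0.87), NKD1 at -0.43 (-1.70 to 0.75), TCF7 at -0.84 (-1.86 to 0.05) and APC at -0.17 (-0.85 to 0.51). The median of the members was -0.17, beside 0.03 over all loci. By total fragments, which moved the median of all loci to 0.65, CTNNB1 (1.17) and ZNRF3 (1.05) were called higher. By FPKM, with a call resting on fold alone, 5 of the 7 members were lower in NCM460 and 0 higher, and the median of all loci was -0.34. The same rule called 8430 of all 12657 loci, 62.1% of them lower. The 3 feedback inhibitors then stood at -1.08 (AXIN2), -0.78 (RNF43) and -0.58 (ZNRF3), all negative as in HT-29.

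The intervals of AXIN2 in the 2 lines, -1.94 to -0.82 in HT-29 and -1.0 to 2.23 in NCM460, overlapped, with only 6 and 12 fragments in NCM460. Those of RNF43, -1.07 to -0.56 and -0.80 to -0.01, also overlapped, and those of ZNRF3, -1.23 to -0.85 and 0.03 to 0.71, did not. Of the 7 members 2, ZNRF3 and CTNNB1, had intervals that did not overlap, beside 19.4% of the 10849 loci tested in both lines. With the GC trend subtracted those of CTNNB1 overlapped and those of ZNRF3 did not. The difference between the lines was not tested, since each condition has 1 library.

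Fold changes in NCM460 moved with the GC content of the transcript. Across 7342 loci that averaged 10 CPM or more, Spearman's rho of log2 fold change and GC content was -0.74 in NCM460, -0.17 in HT-29 (7538 loci) and -0.60 between the lines (7542 loci). These are descriptions across loci that share 2 libraries each. When the trend on GC content was subtracted, 12% of loci were called in NCM460 in place of 29.2% (5.67% higher and 6.3% lower), and 30.6% in HT-29 in place of 31.5% (14.6% higher and 16% lower). By the GC content of their own longest transcript, APC (39.6%) and CTNNB1 (43.5%) were the lowest of the 7 tested members. In NCM460 their values moved most. In NCM460 CTNNB1 went from 0.49 to -0.23, and APC from -0.17 to -0.99, which was then called lower. TCF7 in NCM460 went from -0.84 to -0.38, whereas DESeq2's size factors gave -0.94, called lower. AXIN2, RNF43 and ZNRF3, whose own transcripts have a GC content of 50.7% to 53.5%, moved by little in HT-29 (to -1.29, -0.79 and -1.03) and kept their calls. For a shared locus the trend was subtracted at the mean GC content of all its genes. The correction of AXIN2, RNF43, ZNRF3 and APC thus rests on their partners as well.

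**Figure D3:**
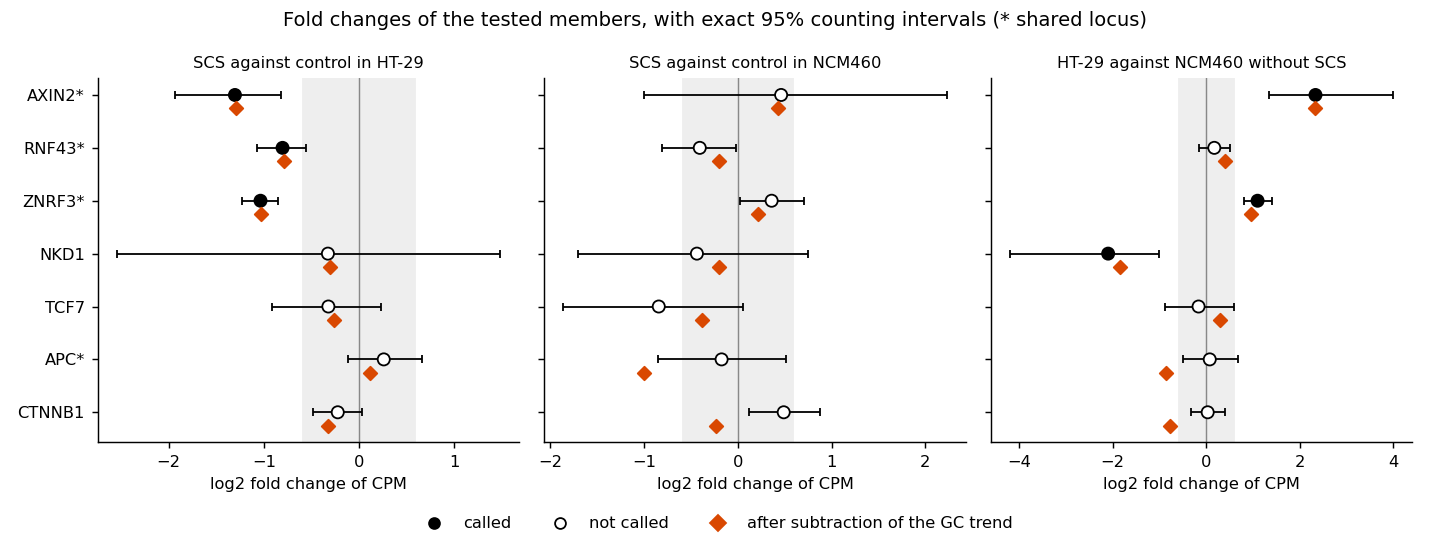
Log2 fold change of CPM (horizontal axes) of the 7 tested members in the 3 comparisons, with exact 95% counting intervals. Filled circles are called, open circles are not, the shaded band is within 1.5-fold, and diamonds show the value after subtraction of the GC trend. AXIN2, RNF43 and ZNRF3 lie left of the band in HT-29 (-1.30, -0.80 and -1.04), and no circle is filled in NCM460.

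The third comparison set the untreated lines side by side. It shares the HT-29 control library and the NCM460 control library with the comparisons above, so its values are not independent of theirs. AXIN2 was higher in HT-29 than in NCM460 by a log2 fold change of 2.33 (1.34 to 4.0), or 5.04-fold, and ZNRF3 by 1.10 (0.81 to 1.41), or 2.14-fold. NKD1 was lower in HT-29 by -2.10 (-4.19 to -1.01). Thus 2 of the 7 members were called higher and 1 lower, beside 25.3% higher and 23.1% lower of all 12691 loci (48.4% called in all). RNF43 (0.17, -0.15 to 0.50), TCF7 (-0.16, -0.88 to 0.58), APC (0.08, -0.49 to 0.68) and CTNNB1 (0.03, -0.32 to 0.39) were not called. With the GC trend subtracted AXIN2, ZNRF3 and NKD1 kept their calls (2.32, 0.96 and -1.85), while APC and CTNNB1 were called lower in HT-29 (-0.87 and -0.78). That made 2 members higher and 3 lower, beside 18.6% higher and 19.3% lower of all loci (37.9% called in all). By total fragments the median of all loci moved from 0.10 to 1.12 and the NKD1 value of -1.14 was no longer called. Then 6 of the 8 members tested were called higher in HT-29 and 0 lower, with RNF43 at 1.26, TCF7 at 0.88, APC at 1.13 and CTNNB1 at 1.11, beside the median of 1.12 over all loci. Of all loci called by that scaling, 14.9% were lower. By FPKM AXIN2 stood at 1.09, below its value of 2.33 by fragments but past 1.5-fold. ZNRF3 stood at 0.11 by FPKM, not called, and RNF43 at -0.94, past 1.5-fold in the other direction.

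The genes around the members were taken from a list of 138 further genes of the pathway. Of these, 137 have a row, 20 had 0 fragments in all 4 libraries, and 115 detected loci remained apart from those of the members. In HT-29, 6 of the 81 loci tested were called higher with SCS and 15 lower, with a median of -0.07, beside the 16.8% higher and 14.8% lower of all loci. In NCM460, 15 of 94 were called higher and 18 lower (median -0.30), beside 15.4% and 13.8% of all loci, which became 5 and 5 (median -0.01) with the GC trend subtracted. Scaling by total fragments turned the split to 19 higher and 11 lower of 88 in HT-29 and to 27 and 2 in NCM460. By that scaling 3148 of all 12658 loci were higher in HT-29 and 1115 lower. In NCM460 5.91% of all loci called by it were lower, so the split moved as that of all loci did. The authors' own scaling gave 12 higher and 24 lower in NCM460, where 58.0% of all called loci were then lower.

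The list of other target genes held most of the lower loci in HT-29: 8 of its 19 tested loci were called lower and 2 higher, beside 14.8% and 16.8% of all loci, with a median of -0.16. With TMM scaling alone, the same shares of all loci stand behind each count in HT-29 below. Those for NCM460 (13.8% lower and 15.4% higher) stand behind each such count in that line. With the GC trend subtracted the shares were 16% lower and 14.6% higher in HT-29, and 6.3% lower and 5.67% higher in NCM460. By total fragments, 1115 of 12658 loci were lower in HT-29 and 3148 higher. CCND1, the cyclin that drives entry into S phase, went from 178 to 65 fragments (log2 fold change -1.64, -2.12 to -1.27). SOX9, a transcription factor of crypt progenitors, went from 238 to 98 (-1.48, -1.87 to -1.17). MYC, a regulator of growth, went from 278 to 197 (-0.72, -1.0 to -0.46). These 3 classical targets were thus lower alongside the AXIN2 locus, MYC by the least.

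CDCA7, a cell division gene, had the lowest value of the list, from 47 to 6 fragments (-2.69, -4.72 to -1.97). MMP7, a secreted protease, went from 147 to 60 (-1.48), ETS2 from 266 to 132 (-1.22), the hyaluronan receptor CD44 from 593 to 308 (-1.17) and SOX4 from 151 to 89 (-0.97). Against this direction, PPARD, a nuclear receptor, went from 34 to 114 (1.45, 0.95 to 2.11), and PLAUR, the urokinase receptor, from 71 to 176 (1.05, 0.67 to 1.5). With the GC trend subtracted the list again had 8 lower and 2 higher. By total fragments it had 7 lower and 4 higher, and MYC, at -0.45, was the named target whose call was lost.

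In NCM460 the same list had 2 of 19 loci called higher and 2 lower. CCND1 stood at 0.11 (-0.21 to 0.44), SOX9 at -0.34 (-0.65 to -0.04) and MYC at -0.17 (-0.39 to 0.04), none of them called. SOX4 was higher, from 126 to 329 fragments (0.91, 0.61 to 1.22), and stayed so with the GC trend subtracted (1.05). MET, the receptor of hepatocyte growth factor, was called higher (0.70), and JUN (-0.71) and MSI1 (-1.61) lower, but these 3 calls were lost with the GC trend subtracted.

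**Figure D4:**
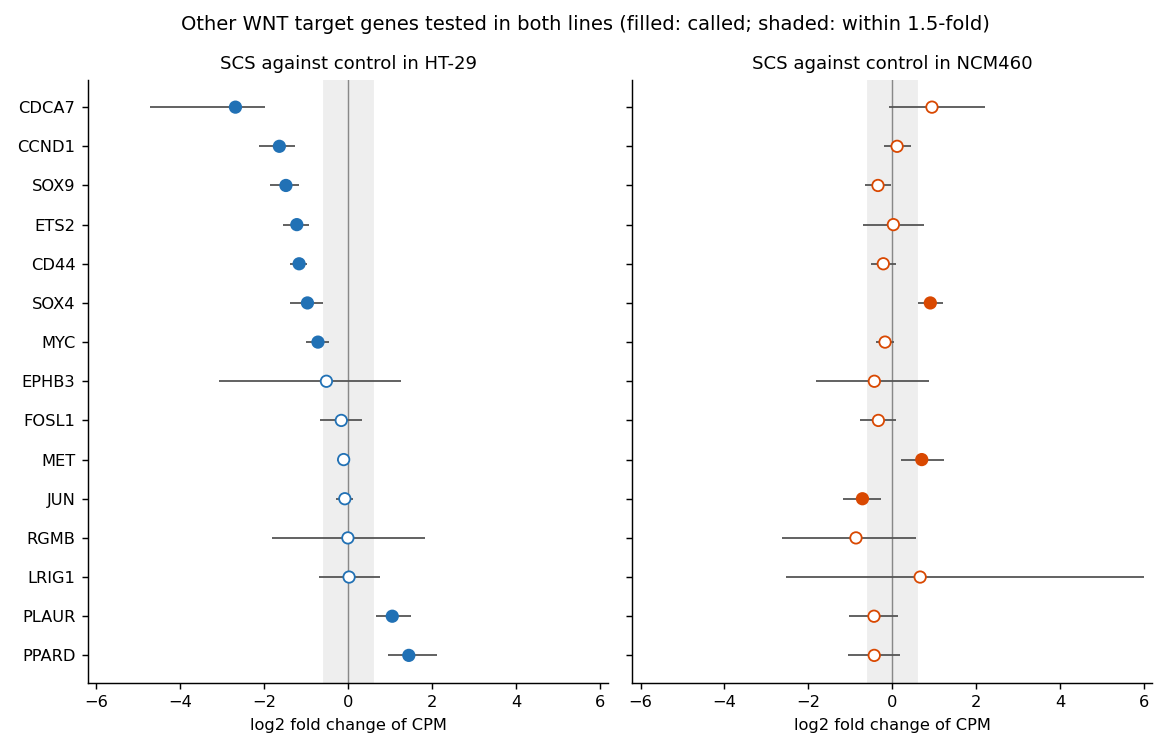
Log2 fold change of CPM with SCS (horizontal axes) of the 15 other WNT target genes tested in both lines, HT-29 left and NCM460 right, with 95% counting intervals cut at 6. Filled points are called and the shaded band is within 1.5-fold. In HT-29 CDCA7, CCND1, SOX9, ETS2, CD44, SOX4 and MYC lie left of the band, and in NCM460 none of these is called lower.

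Upstream of the members, 3 of 10 receptor loci were called lower in HT-29 and 0 higher, against 5 lower and 0 higher with the GC trend subtracted and 2 lower and 1 higher by total fragments. ROR1, a receptor of non-canonical WNT signals, went from 103 to 22 fragments (-2.31, -3.19 to -1.78). LRP5, the co-receptor, went from 281 to 163 (-1.0, -1.31 to -0.73). LGR4, a relative of LGR5, went from 33 to 21 (-0.80, -1.75 to -0.05), a call that was lost by total fragments (-0.56) and when the libraries were thinned to equal nuclear depth (-0.09). FZD6, the highest of the list at 0.47, was not called. Among the ligands 1 of 5 tested loci, WNT11, was lower, from 22 to 5 fragments (-1.84), and WNT10A stood at 26 and 25. Among the extracellular modulators 1 of 4, SOSTDC1, was lower, from 13 fragments to 1 (-2.18, -9.34 to -1.20). WLS, the carrier needed for WNT secretion, stood at 133 and 149 fragments (-0.07).

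In NCM460, 4 of 13 receptors were called higher and 0 lower, but only LGR4, from 4 to 37 fragments (2.47, 1.26 to 4.69), kept its call with the GC trend subtracted (1.60). The ligand WNT16 went from 43 to 159 fragments (1.39), and the secreted inhibitor DKK1 from 111 to 344 (1.15). Both calls were lost with the GC trend subtracted, at 0.45 and 0.44.

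Within the destruction complex and transduction list, 2 of 23 loci were called higher in HT-29 and 1 lower. AXIN1, the constitutive counterpart of AXIN2, stood at 0.19 (-0.18 to 0.57) and GSK3B at 0.34 (0.08 to 0.61), neither of them called. CSNK1G3, a casein kinase 1 gene, was higher (37 to 82 fragments, 0.87), DVL2, a dishevelled gene, was just past the threshold (35 to 64, 0.60), and AMER1, a scaffold for APC and AXIN1, was lower (24 to 11, -1.15). The AMER1 call was lost by total fragments (-0.95) and after thinning (-1.36). By total fragments this list had 9 higher and 0 lower. In NCM460 it had 6 higher and 6 lower, and 2 and 1 with the GC trend subtracted. CSNK1A1, the casein kinase that primes β-catenin for degradation, had 34 and 192 fragments there in a locus it shares with CTB-89H12.4 (1.99, or 0.76 and still called with the GC trend subtracted), and AXIN1 had 32 and 19 (-1.17, or -0.44 and no longer called with the GC trend subtracted).

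Of 16 nuclear factors tested in HT-29, 1 was higher and 1 lower, or 3 and 0 by total fragments. HBP1, a repressor of WNT targets, went from 33 to 134 fragments (1.71, 1.23 to 2.39). TCF7L2, the main TCF of the colon, went from 140 to 91 (-0.83, -1.25 to -0.46), a call lost by total fragments (-0.57). In NCM460, 8 of 17 were called lower and 1 higher, against 2 lower and 1 higher with the GC trend subtracted. CTBP2, a co-repressor, went from 17 to 71 fragments (1.53, then 0.73), and TCF7L1, a TCF that mainly represses, from 31 to 13 (-1.63, then -0.93). TCF7L2 stood at -0.36 in NCM460, not called, and was called lower with the GC trend subtracted (-0.80). Of the adherens junction partners of β-catenin, E-cadherin (CDH1) was higher in HT-29 with SCS, from 267 to 526 fragments (0.74), while CTNND1, whose values are those of a locus shared with TMX2 and C11orf31, stood at -0.21. In NCM460 JUP was lower (304 to 192 fragments, -1.13), which became -0.43 and was no longer called with the GC trend subtracted.

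Between the untreated lines the pathway list had 26 of 100 loci higher in HT-29 and 43 lower (beside 25.3% and 23.1% of all loci), with a median of -0.52, or 22 and 35 with a median of -0.01 after the GC trend was subtracted. By total fragments the split was 45 higher and 23 lower, where 14.9% of all called loci were lower. Several genes were read in 1 line only. Their counting intervals are open on 1 side, and the other end is given on the log2 scale, without and with the GC trend subtracted. TCF7L1 had 0 fragments in HT-29 control and 31 in NCM460 control, and its interval reached up to -4.38 and -3.50. The dishevelled antagonist NKD2, a relative of NKD1, had 0 and 28 (up to -4.22 and -3.02). TLE2, a co-repressor of TCF factors, had 0 and 32 (up to -4.43 and -3.41).

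The ligands also differed. WNT10A had 26 fragments in HT-29 control and 0 in NCM460 control, with an interval from 1.32 upward (2.42 with the GC trend subtracted), while WNT16 had 0 and 43 (up to -4.87 and -5.96). Of 19 ligands, 6 and 9 had at least 1 fragment in HT-29 without and with SCS, and 12 and 10 in NCM460. Some of these were within the floor of 3 fragments, such as WNT5A (1), WNT5B (1), WNT2B (2) and WNT4 (2) in NCM460 control. In HT-29 control WNT3 (2) was too. The number of ligands with a fragment therefore does not set the lines apart. DKK1 had 2 fragments in HT-29 control and 111 in NCM460 control (-6.0, -10.3 to -5.30). Of the receptors, RYK was higher in HT-29 (141 against 6 fragments, 2.97, or 1.53 with the GC trend subtracted) and ROR2 lower (0 against 15, up to -3.24 and -2.68).

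Among the target genes, MMP7 had 147 fragments in HT-29 control and 0 in NCM460 control, with an interval from 3.90 upward (2.80 with the GC trend subtracted). BAMBI, a decoy receptor, had 0 and 24 (up to -3.98 and -3.80). MYC (-1.57), CCND1 (-0.98), SOX9 (-0.90) and TCF7L2 (-1.60) were lower in HT-29 control than in NCM460 control, the opposite side from AXIN2 and ZNRF3. By total fragments none of these 4 was called, at -0.48, 0.10, 0.19 and -0.52. The sign of CCND1 and SOX9 between the lines thus depends on the scaling, while MYC and TCF7L2 stayed negative. CDH3, a cadherin, had 3 against 153 fragments (-6.18, -9.36 to -5.49), and the locus CTNND1 shares with TMX2 and C11orf31 was higher in HT-29 (1.04), which by FPKM stood at 0.07 and was not called.

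The loci with a pattern most like that of AXIN2 were sought by Euclidean distance of centred log2 CPM over the 4 libraries, among 7798 named loci that averaged 10 CPM or more. GNE, an enzyme of sialic acid synthesis, was the nearest (distance 0.216), with 73, 36, 5 and 12 fragments in HT-29 control, HT-29 with SCS, NCM460 control and NCM460 with SCS. The homeobox gene HOXA13 (0.221) had 62, 33, 5 and 9, and ECT2, a gene of cytokinesis (0.229), had 145, 76, 10 and 24. All of them were highest in HT-29 control and lowest in NCM460 control. Over only 4 libraries this nearness is a description.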

How the data were processed

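RNA-seq libraries (NEBNext Ultra RNA kit, paired-end Illumina, no strand stated) were read from 1 table. The count columns the authors deposited hold a signal, fragments divided by a size factor for each library, where the design had assumed whole counts. Dividing each column by the value of a single fragment left 99.7% to 99.8% of its values above 0 within 0.01 of a whole number. The table also holds the deposited FPKM, which the authors computed per kilobase of transcript. The submitters' processing notes name bcl2fastq 2.17.1.14, cutadapt 1.9.1, Bowtie2, HTSeq 0.6.1 and hg19, and the paper names Cuffdiff. The table's gene positions match GRCh38 instead: 94.3% of the gene identifiers shared with GENCODE 29 have the same start and end. The 26 rows without a gene name (at most 0.0352% of fragments) were left out. Adjacent rows with identical values were counted once, giving 18650 loci.

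Groups came from the labels, with 1 library per condition, so no test between conditions was run. CPM used edgeR 4.0.16 TMM factors over all 4 libraries (R 4.3.3) with a prior count of 2 for fold changes. Intervals are exact Clopper-Pearson (SciPy 1.17.1) at 95%, and Poisson for single levels, and cover counting error only. A locus needed a mean of 1 CPM over both libraries and was called past 1.5-fold with an interval that excluded no change. The method was tested on simulated counts that held counting error only. That test does not cover PCR copies, differences between cultures or the GC trend. Transcript GC content came from GENCODE 29, averaged over the genes of a shared locus, and its trend was a lowess curve of span 0.3. FPKM was compared as log2 of FPKM plus 0.1. DESeq2 1.42.0 gave alternative size factors.

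The members and lists were chosen with earlier results of these data known. Named genes are every member, the highest and lowest locus of each pathway list with a mean of at least 5 CPM, TCF7L1, TCF7L2, MYC, CCND1, SOX9, AXIN1 and GSK3B, and the 3 loci nearest to AXIN2's pattern with a mean of 10 CPM. Other genes named were chosen after their values were seen.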

Additional observations from a re-analysis of the deposited data

Results flagged for a closer look

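For 3 genes of the pathway lists SCS went with a call in opposite directions in the 2 lines, in 1 library per condition, and the difference was not tested. Over all loci tested, 31.5% were called in HT-29 and 29.2% in NCM460. The share of all loci called in opposite directions was not counted, so the 3 genes are not read as unusual. DVL2 had a log2 fold change of 0.60 in HT-29 and -1.23 in NCM460, but by FPKM 0.08 and -0.41, within 1.5-fold in both. LGR4 had -0.80 in HT-29 and 2.47 in NCM460. SOX4 had -0.97 in HT-29 and 0.91 in NCM460. With the GC trend subtracted, SOX4 and LGR4 kept their calls in both lines (-0.96 and 1.05 for SOX4, -0.96 and 1.60 for LGR4), and DVL2 in NCM460 stood at -0.55 and was no longer called. LGR4 in HT-29 stood at -0.09 when the libraries were thinned to equal nuclear depth.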

How the results depend on the processing

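Under 9 alternatives per comparison, 74 of the 81 values of the main results stayed within 1.5 times (counts of loci) or within the median interval of the loci (medians). The number of loci called went from 3839 to 6425 in HT-29, from 3690 to 8430 in NCM460 and from 6144 to 9352 between the lines with FPKM, where a call rests on fold alone, and from 3690 to 1509 in NCM460 with the GC trend subtracted. Between the lines, the median log2 fold change of the members moved from 0.08 to 1.19 by total fragments and to -0.51 with FPKM, and that of the pathway list from -0.52 to 0.41 by total fragments. By total fragments the share of called loci that were lower went from 46.9% to 26.2% in HT-29, from 47.3% to 5.91% in NCM460 and from 47.7% to 14.9% between the lines. It was 58.0% in NCM460 with the authors' own scaling, and with FPKM 58.0%, 62.1% and 62.6% in the 3 comparisons. The median of all loci in NCM460 stood at -0.07 with DESeq2's size factors and -0.11 with the authors' own scaling. By total fragments the median turned positive for the pathway list in HT-29 (0.18) and NCM460 (0.37) and for the members in NCM460 (0.50). Between the lines, the members' median stood at -0.04 with DESeq2's size factors and -0.10 with the authors' own scaling. FPKM turned the sign of AXIN2 (-1.08) and ZNRF3 (-0.58) in NCM460, where it put 5 of the 7 members past 1.5-fold lower. No paired analysis was possible because each condition has 1 library, and no library could be left out for the same reason. Depth limits LGR5, ASCL2, LEF1 and NKD1 in every library, and AXIN2 in NCM460.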
